A study of Homo sapiens with 24 samples.

Results

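HMGB2 encodes high-mobility group box 2, a small chromatin protein, and it was followed here through both array probes that carry its symbol in the authors' deposited lists of changed genes, 2 of 47223 probes on the array. It is 1 of 605 genes that those lists name and that were tested. The probes are ILMN_1654268 and ILMN_2219712. Both were detected on all 24 arrays and both were among the 24750 probes tested. HMGB2 stands in the deposited lists of AsPC-1 at 24 h and of COLO-357 at 24 h and 72 h. It was chosen by its values in those 3 comparisons, which are given as a description without a p-value. The comparison of AsPC-1 at 72 h, whose arrays entered none of those 3 lists, is the one that was tested.

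HMGB proteins bind DNA with little regard to sequence through a pair of HMG boxes and bend it, which helps other factors assemble on chromatin. HMGB2 is abundant in dividing cells and in early embryonic tissues, and its level is low in most resting adult tissues. It stays with mitotic chromosomes, and its loss has been linked to the chromatin changes of senescent cells.

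The arrays profiled AsPC-1 and COLO-357, established lines of human pancreatic ductal adenocarcinoma. Each line received vehicle or 5 µM PD-0332991 (palbociclib, written PD below), which inhibits CDK4 and CDK6, the kinases that release E2F factors from RB. RNA was taken at 24 h and 72 h, with 3 biological replicates in each of the 8 groups. AsPC-1 was kept in RPMI and COLO-357 in DMEM, so line and medium cannot be told apart. Each array detected 16440 to 20697 probes. None of 11 ductal markers and none of 24 markers of other cell types had a name in the files, so the labelled cell type was not checked. RNA came from whole cultures, in which fewer dividing cells and less HMGB2 RNA per cell cannot be told apart.

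At 24 h HMGB2 was lower under PD in both lines. In AsPC-1 the normalised log2 signal of ILMN_1654268 was 9.98, 10.05 and 10.29 on the vehicle arrays and 8.30, 8.22 and 8.40 on the PD arrays. The difference was -1.80 ± 0.20 log2 (SE, n = 3 per group), which leaves 28.7% of the vehicle level. ILMN_2219712 read 11.05, 10.87 and 10.99 with vehicle and 8.99, 8.98 and 9.51 with PD, a difference of -1.81 ± 0.16. Both probes thus gave nearly the same difference in this line, and no PD array reached a vehicle array. Of all tested probes, 99 had a larger drop than ILMN_1654268.

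In COLO-357 at 24 h the drop was deeper on ILMN_1654268. Its log2 signal was 10.94, 11.12 and 10.83 with vehicle and 7.99, 7.95 and 8.55 with PD. The difference of -2.80 ± 0.20 leaves 14.3% of the vehicle level, and 6 of 24750 tested probes had a larger drop. ILMN_2219712 read 8.82, 8.95 and 8.55 with vehicle and 6.56, 6.63 and 6.76 with PD, a difference of -2.13 ± 0.16 that leaves 22.9%. PD and vehicle arrays did not overlap on either probe. The difference between the lines in the 24 h drug effect was -1.0 ± 0.28 on ILMN_1654268 and -0.32 ± 0.22 on ILMN_2219712. On ILMN_2219712 it was 0.21 without background correction, the opposite direction.

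**Figure D1:**
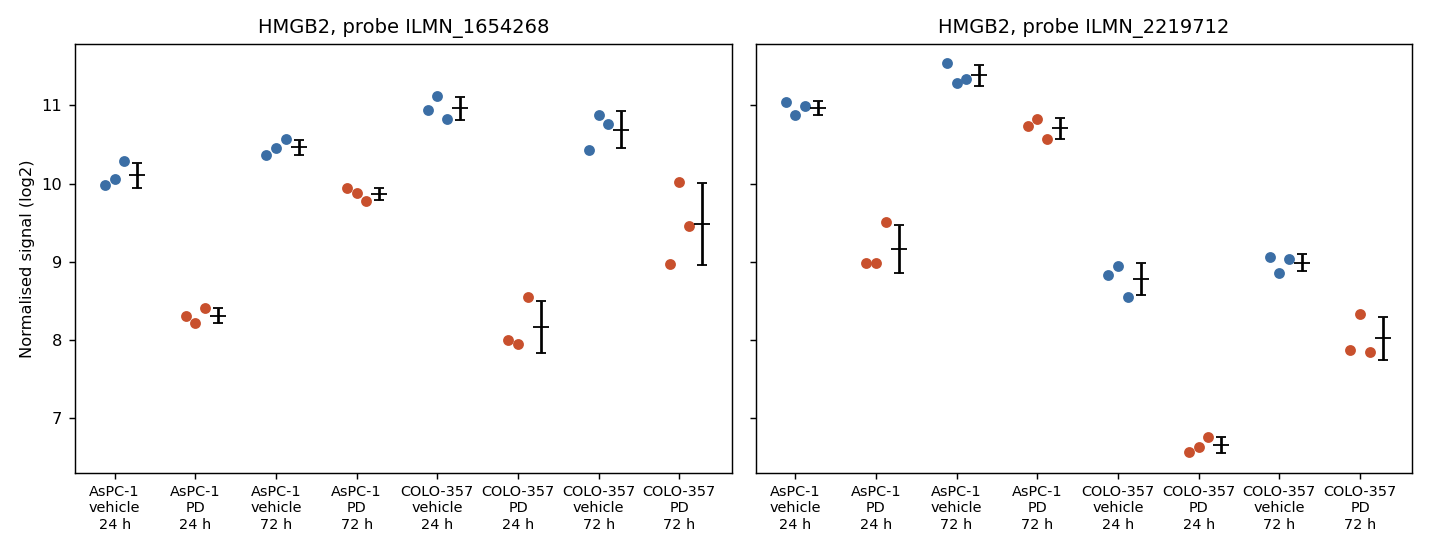
Normalised HMGB2 signal (log2, vertical axis) on each of the 24 arrays, by group, for ILMN_1654268 (left) and ILMN_2219712 (right). Points are arrays (blue vehicle, orange PD), and the black marks are the group mean and SD. PD arrays lie below the vehicle arrays of the same line and time in all 4 pairs on both probes, with the lowest means in COLO-357 under PD at 24 h (8.16 and 6.65).

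At 72 h HMGB2 in AsPC-1 was closer to the vehicle level. ILMN_2219712 read 11.54, 11.28 and 11.33 with vehicle and 10.73, 10.83 and 10.57 with PD, so the groups did not overlap. On this probe HMGB2 fell by 0.67 ± 0.16 log2 (limma, adjusted p = 0.01, with adjustment over all 24750 probes), to 62.7% of vehicle. ILMN_1654268 read 10.37, 10.46 and 10.56 with vehicle and 9.94, 9.88 and 9.78 with PD, again without overlap. Its difference of -0.60 ± 0.20, with a 95% interval of -1.01 to -0.19, did not pass the test (adjusted p = 0.08). In this comparison 2.79% of all tested probes were called lower. The call on ILMN_2219712 was lost without vehicle replicate 1 (adjusted p = 0.056) or PD replicate 3 (adjusted p = 0.06). ILMN_1654268 passed when only the groups compared were fitted (adjusted p = 0.031), without background correction (0.033) and with array weights (0.046).

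In COLO-357 at 72 h the PD arrays were unequal. ILMN_1654268 read 10.43, 10.88 and 10.76 with vehicle and 8.97, 10.02 and 9.46 on PD replicates 1, 2 and 3. The group SD under PD was 0.52, the widest of the 8 groups on this probe. The difference was -1.20 ± 0.20, or 43.4% of vehicle. It was -0.95 without PD replicate 1 and -1.47 without PD replicate 2. ILMN_2219712 read 9.06, 8.86 and 9.04 with vehicle and 7.87, 8.33 and 7.85 with PD, a difference of -0.97 ± 0.16. Replicate 2 was the highest PD array on both probes, and no PD array reached a vehicle array on either.

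The authors' deposited table gives ratios of PD over vehicle for HMGB2 of 0.361 and 0.341 in AsPC-1 at 24 h, 0.164 and 0.298 in COLO-357 at 24 h, and 0.365 and 0.481 in COLO-357 at 72 h, with ILMN_1654268 first each time. The value nearest the edge inside the lists was 0.481. In AsPC-1 at 72 h, where HMGB2 is not listed, the geometric mean of the authors' scaled values under PD, divided by that with vehicle, was 0.692 for ILMN_1654268 and 0.66 for ILMN_2219712. The largest listed ratio below 1 in that comparison was 0.495 in the authors' deposited table.

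The smaller difference at 72 h came with a higher level in PD cultures. In AsPC-1 the PD level at 72 h was above that at 24 h by 1.56 ± 0.20 on ILMN_1654268 and 1.55 ± 0.16 on ILMN_2219712. In COLO-357 it was above by 1.32 ± 0.20 and 1.37 ± 0.16. The PD arrays of the 2 times did not overlap on either probe in either line. Vehicle cultures differed less between the times. In AsPC-1 the vehicle level at 72 h was higher by 0.36 ± 0.20 and 0.41 ± 0.16, without overlap of arrays. In COLO-357 the vehicle level at 72 h was lower by 0.28 on ILMN_1654268 (-0.28 ± 0.20) and higher on ILMN_2219712 (0.21 ± 0.16), and the arrays overlapped on both probes. Among same-numbered COLO-357 vehicle arrays, ILMN_1654268 was lower at 72 h in 3 of 3 pairs (by -0.51 to -0.07) and ILMN_2219712 in 1 of 3. With the replicate block the SEs of these differences were 0.18 and 0.16.

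Taken as a change of the drug effect from 24 h to 72 h, the difference moved up by 1.20 ± 0.28 on ILMN_1654268 and 1.14 ± 0.22 on ILMN_2219712 in AsPC-1. In COLO-357 it moved up by 1.60 ± 0.28 and 1.16 ± 0.22. In the authors' scaled values, which keep the background, the COLO-357 change was 1.15 and 0.69. These values share their 24 h arrays with the lists that chose HMGB2, and those of COLO-357 share their 72 h arrays too. No p-value is given for them. At 72 h the drug effect in COLO-357 minus that in AsPC-1 was -0.61 ± 0.28 on ILMN_1654268 and -0.29 ± 0.22 on ILMN_2219712. The first of these was -0.35 without COLO-357 PD replicate 1.

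**Figure D2:**
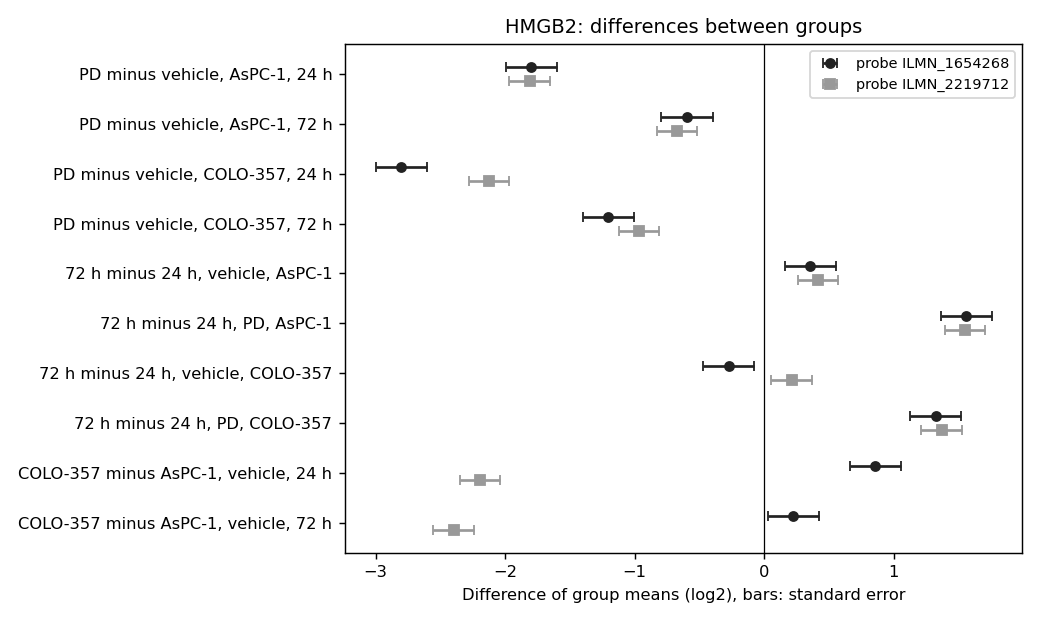
Differences of group means for HMGB2 (log2, horizontal axis) in 10 comparisons, with standard errors as bars, for ILMN_1654268 (black circles) and ILMN_2219712 (grey squares). The probes lie on the same side of 0 for every difference between PD and vehicle, and on opposite sides for the differences between lines, such as 0.86 and -2.20 in vehicle at 24 h.

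The probes disagreed on which line holds more HMGB2 RNA. In vehicle cultures at 24 h COLO-357 was above AsPC-1 by 0.86 ± 0.20 on ILMN_1654268 and below it by 2.20 on ILMN_2219712 (-2.20 ± 0.16). At 72 h the differences were 0.23 ± 0.20 and -2.40 ± 0.16. On ILMN_1654268 the vehicle arrays of the lines overlapped at 72 h only, and on ILMN_2219712 at neither time. The size on ILMN_1654268 depended on the scaling, with 1.49 at 24 h and 0.73 at 72 h in the authors' scaled values. Their median over all tested probes was 0.14 at 24 h and 0.09 at 72 h. With 75th percentile scaling the medians over all probes were -0.27 and -0.29. The sign on each probe was the same under all 14 alternative settings at each time, which all reuse these arrays. On ILMN_1654268 at 72 h the lowest value was 0.13.

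In vehicle cultures at 24 h the opposite order was already present in the deposited signals. The median of ILMN_1654268 was 3409.6 in COLO-357 and 854.8 in AsPC-1, and that of ILMN_2219712 was 854.5 and 1597. Medians over all probes were 116.2 to 133 on these COLO-357 arrays and 94.8 to 103.2 on these AsPC-1 arrays. The deposited signal of ILMN_1654268 divided by that of ILMN_2219712 was 0.455 to 0.686 on the 12 AsPC-1 arrays, with a median of 0.574. On the 12 COLO-357 arrays it was 1.82 to 4.24, with a median of 2.66. The lines did not overlap in this ratio, in which the array's own scale cancels but an added background does not. The ratio alone does not order the lines on either probe. Within COLO-357 at 24 h the ratio was 3.84, 3.99 and 4.24 on vehicle arrays and 2.09, 2.01 and 2.60 on PD arrays. On these PD arrays ILMN_2219712 read 208 to 219, where array medians were 110 to 120. The background-corrected log2 difference between probes was 2.12, 2.17 and 2.28 with vehicle and 1.44, 1.31 and 1.79 with PD. The part of background in these ratios was not tested. In AsPC-1 at 24 h the vehicle arrays (0.535 to 0.624) lay within the range of the PD arrays (0.516 to 0.686). Of 77 genes with at least 2 named and tested probes, HMGB2 had the widest gap between its probes in the line difference, at 3.05 log2 at 24 h and 2.62 at 72 h. The median gap over these genes at 24 h was 0.40. This comparison was made after the HMGB2 values had been seen, and where on the transcript each probe lies was not analysed here. The order of HMGB2 levels between lines is therefore given per probe.

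On ILMN_1654268 the groups ran from COLO-357 vehicle at 24 h (10.96 ± 0.15, SD) through COLO-357 vehicle at 72 h (10.69 ± 0.23), AsPC-1 vehicle at 72 h (10.46 ± 0.10) and AsPC-1 vehicle at 24 h (10.11 ± 0.16) to AsPC-1 PD at 72 h (9.87 ± 0.08). COLO-357 PD at 72 h (9.48 ± 0.52), AsPC-1 PD at 24 h (8.31 ± 0.09) and COLO-357 PD at 24 h (8.16 ± 0.33) followed. Neighbours in this order overlapped except AsPC-1 vehicle at 72 h and 24 h, AsPC-1 vehicle at 24 h and PD at 72 h, and COLO-357 PD at 72 h and AsPC-1 PD at 24 h. On ILMN_2219712 the means of all 4 AsPC-1 groups stood above those of all 4 COLO-357 groups, from 11.38 ± 0.14 in AsPC-1 vehicle at 72 h to 6.65 ± 0.10 in COLO-357 PD at 24 h. Neighbours in that order did not overlap, except that COLO-357 vehicle at 72 h overlapped AsPC-1 PD at 24 h above it (9.16 ± 0.30) and COLO-357 vehicle at 24 h below it.

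Other HMG genes were mostly without a name in the files. Of 17 other members of the HMG family list, HMGN2 was named, a nucleosome-binding protein without an HMG box. Its log2 signal in AsPC-1 at 24 h was 14.02, 13.72 and 13.68 with vehicle and 12.80, 12.83 and 12.67 with PD. HMGN2 fell by 1.04 ± 0.13 there (limma, adjusted p = 1e-05) and by 0.56 ± 0.13 in AsPC-1 at 72 h (adjusted p = 0.012). Neither AsPC-1 list names it. In COLO-357, where both lists name it, the differences were -1.32 ± 0.13 at 24 h and -0.73 ± 0.13 at 72 h. HMGB1L1, a deposited name that RefSeq gives as an older name of more than 1 gene, was picked out after its values were seen and is listed in COLO-357 at 24 h alone (-1.39 ± 0.14). It was lower by 0.98 ± 0.14 in AsPC-1 at 24 h and by 0.56 ± 0.14 at 72 h, and by 0.64 ± 0.14 in COLO-357 at 72 h. Because of how HMGB1L1 was picked, these values are a description without a p-value. HMG genes have near-identical copies, and whether these probes read them was not tested. Of 11 partner proteins of HMGB2, mainly the SET complex, and of 6 HMGB receptors, 0 had a name.

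Among chromatin genes, 10 of 31 histones and histone chaperones were named. The files name only the probes that the authors listed as changed, in these samples or in cyclin knockdowns of the same lines, so the counts below are no independent evidence of a direction, and a call means an adjusted p under 0.05 over all tested probes. At 24 h 9 of 10 were called lower and 1 higher in AsPC-1, where 5.79% of all tested probes were called lower and 5.93% higher. In COLO-357 9 of 10 were called lower, against 5.78% of all probes. CENPA, the centromeric histone H3 variant, had differences of -3.47 in AsPC-1 and -2.91 in COLO-357, and HJURP, which loads it, -2.71 and -2.24. OIP5, which takes part in that loading, had -1.26 and -1.13. The replication-dependent histone gene HIST1H4C had -1.45 and -1.40, and the chaperone gene CHAF1B -1.94 and -0.95. HIST1H2BK, a histone H2B gene, went the other way in AsPC-1 (1.06) and had 0.06 in COLO-357. The medians of the list were -1.64 and -1.41, beside 0.01 for all probes in both lines. At 72 h 1 of 10 was called lower in AsPC-1, where 2.79% of all probes were called lower. This was CENPA (-0.77, limma adjusted p = 0.049). The count of 1 changed in 14 of 14 alternative settings, with a range of 0 to 3. In COLO-357 2 of 10 were called lower (OIP5 and CENPA) and 1 higher (HIST1H2BK), where 5.54% of all probes were called lower and 5.74% higher. The HIST1H2BK call was lost in 5 of 14 alternative settings: the authors' scaled values, 75th percentile scaling, and without vehicle replicate 2, PD replicate 1 or PD replicate 3. In the authors' scaled values the balance over all probes moved to 833 lower and 2061 higher in AsPC-1 at 24 h, 1915 and 1067 in COLO-357 at 24 h, and 5139 and 734 in COLO-357 at 72 h. With only the groups compared it was 444 and 230 in AsPC-1 at 24 h.

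Genes of chromosome condensation and cohesion gave 11 named of 20, and 11 of 11 were called lower at 24 h in each line. Of all tested probes, 5.79% were called lower in AsPC-1 and 5.78% in COLO-357. NCAPG, a condensin subunit, had differences of -2.20 in AsPC-1 and -2.15 in COLO-357, the securin gene PTTG1 -2.19 and -1.90, and TOP2A, a topoisomerase of mitotic chromosomes, -2.35 and -2.07. NCAPG2, a subunit of condensin II, had -1.51 and -1.40. The cohesin gene RAD21 had -1.57 and -1.02, and CDCA5, which holds cohesin on chromosomes, -1.44 and -0.96. At 72 h 2 of 11 were called lower in AsPC-1 (PTTG1 and RAD21) and 4 of 11 in COLO-357, beside 2.79% and 5.54% of all probes. In COLO-357 no member of this list had a larger drop than ILMN_1654268 at either time, and 1 of 11 (NCAPG) had a larger drop than ILMN_2219712 at 24 h. In AsPC-1 4 of 11 had a larger drop than ILMN_1654268 at 24 h and 2 of 11 at 72 h. For ILMN_2219712 these counts were 4 of 11 and 1 of 11.

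Of 42 genes of the RB pathway and the DREAM complex, which represses cell cycle genes in resting cells, 10 were named. At 24 h 8 of 10 were called lower in each line, beside 5.79% of all probes in AsPC-1 and 5.78% in COLO-357. Cyclin A2 (CCNA2) had -2.57 in AsPC-1 and -2.20 in COLO-357, the CDK partner CKS2 -0.74 and -1.14, the repressor E2F7 -1.28 and -1.31, and CDK2 -1.22 and -1.21. At 72 h CCNA2 was the 1 member of 10 called lower in each line (-0.72 and -0.76), beside 2.79% and 5.54% of all probes. CCND1, which encodes cyclin D1, was called higher in COLO-357 at 24 h (0.40), where 5.52% of all probes were called higher. It was also called higher in both lines at 72 h (0.53 and 0.83), beside 3.26% and 5.74% of all probes. The COLO-357 call at 24 h (limma, adjusted p = 0.049) was lost in 8 of 14 alternative settings, among them the authors' scaled values, 75th percentile scaling and the omission of any 1 of the 6 arrays. MYBL1, a relative of MYBL2, was called higher in AsPC-1 at 72 h (1.59), where 3.26% of all probes were called higher.

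Mitosis and replication genes set the scale for HMGB2. Of 81 mitosis genes 61 were named, and 61 of 61 were called lower at 24 h in each line, with medians of -1.87 in AsPC-1 and -1.77 in COLO-357. The shares of all probes called lower were 5.79% and 5.78%. In AsPC-1 34 of the 61 dropped by more than ILMN_1654268 and 32 by more than ILMN_2219712. In COLO-357 2 of 61 and 18 of 61 did. At 72 h 15 of 61 were called lower in AsPC-1 (median -0.42) and 36 of 61 in COLO-357 (median -0.57), beside 2.79% and 5.54% of all probes. These counts were 5 without AsPC-1 PD replicate 3 and 15 without COLO-357 PD replicate 1. At 72 h 15 of 61 and 1 of 61 dropped by more than ILMN_1654268, and 7 of 61 and 6 of 61 by more than ILMN_2219712. Of 56 replication genes 22 were named, with 20 of 22 called lower in AsPC-1 and 22 of 22 in COLO-357 at 24 h. PRIM1, a primase subunit, and POLE2, a subunit of DNA polymerase epsilon, were the members most like HMGB2 (r = 0.96 and 0.95, over arrays as defined below). PRIM1 had differences of -1.67 and -1.76 at 24 h, and TYMS, the thymidylate synthase gene, -2.01 and -1.91. The helicase gene MCM7 had -1.29 and -1.04, and its relative MCM8, the least alike, -0.53 and -1.02. At 72 h 2 of 22 and 6 of 22 were called lower, again beside 2.79% and 5.54% of all probes. Only 3 of 22 replication genes dropped by more than ILMN_1654268 in AsPC-1 at 24 h, and 0 of 22 did in the other 3 comparisons. On ILMN_2219712 these counts were 3 and 0, except for 1 of 22 (RPA3, which encodes a subunit of replication protein A, -1.06) in COLO-357 at 72 h.

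HMGB2 was also set against the mean of the mitosis genes array by array. That mean, the log2 level of the 61 named genes, was 8.91, 9.56 and 9.19 on COLO-357 PD replicates 1, 2 and 3 at 72 h, in the same order as ILMN_1654268 but not as ILMN_2219712. Over the 8 groups the order of the 3 arrays was shared in 3 on ILMN_1654268 and in 2 on ILMN_2219712. In AsPC-1 vehicle at 24 h the array with the highest mitosis mean had the lowest HMGB2 on ILMN_1654268 (9.98) but the highest on ILMN_2219712 (11.05). After the mean of each line was subtracted, HMGB2 on ILMN_1654268 correlated with this mean at r = 0.97 over 24 arrays, and with the mean of the 22 replication genes at r = 0.92. After the mean of each group was subtracted these values were 0.76 and 0.45, and on ILMN_2219712 they were 0.67 and 0.44. These are descriptions over arrays that share groups, treatment and normalisation. ILMN_2219712 correlated with ILMN_1654268 at r = 0.98 within AsPC-1 and at r = 0.96 within COLO-357.

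**Figure D3:**
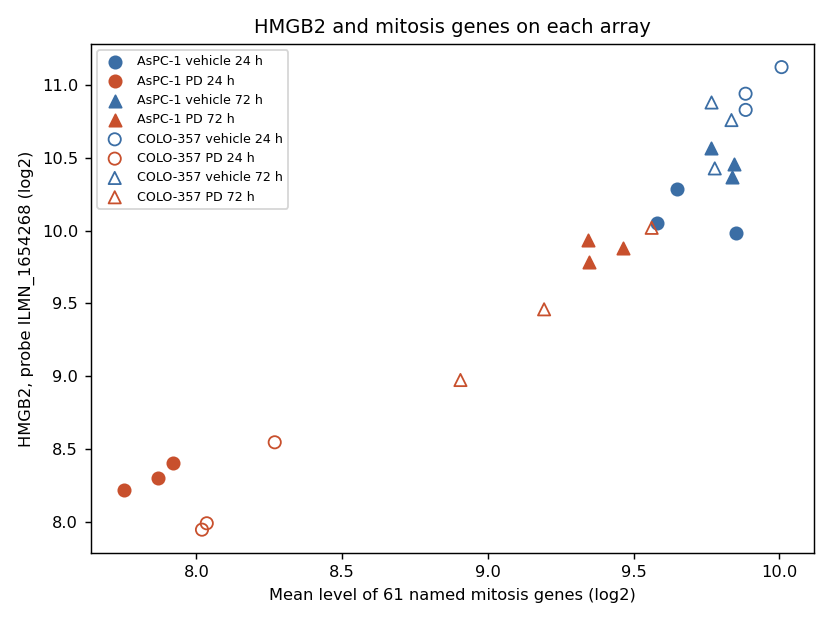
HMGB2 on ILMN_1654268 (log2, vertical axis) against the mean level of 61 named mitosis genes (log2, horizontal axis), 1 point per array (filled AsPC-1, open COLO-357, circles 24 h, triangles 72 h, blue vehicle, orange PD). The PD arrays at 24 h lie at the lower left in both lines, and the 3 COLO-357 PD arrays at 72 h are spread from 8.97 to 10.02 in HMGB2.

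The genes whose pattern was most like HMGB2 were found among 604 other named genes, by Pearson's correlation with ILMN_1654268 over the 24 arrays after each line's mean was subtracted. The nearest was SPC24, a kinetochore subunit (r = 0.98). PSRC1, which binds spindle microtubules, CDCA3, a trigger of mitotic entry, KIF20A, a kinesin of cytokinesis, CCNB1, which encodes cyclin B1, GTSE1, a microtubule-associated protein of G2, STMN1, which destabilises microtubules, and NCAPG followed at r = 0.97. Over the 8 group means these 8 had r between 0.97 and 0.99. The measure sees shape and not size: SPC24 dropped by less than ILMN_1654268 in COLO-357 at 24 h (-1.98), and KIF20A by more (-3.50). In all 102 of 604 genes had r over 0.9, and the median was 0.45. With ILMN_2219712 in its place, 1 of the 8 (PSRC1) stayed among the 8 nearest, and the others ranked 10 to 116.

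The 4 genes least like HMGB2 were D2HGDH, an enzyme that oxidises D-2-hydroxyglutarate (r = -0.88), SDSL, a serine dehydratase-like gene (r = -0.86), MGC72080 (r = -0.86) and SLC16A4, a member of the monocarboxylate transporter family (r = -0.85). D2HGDH had a difference between PD and vehicle of 0.50 in AsPC-1 and 1.27 in COLO-357 at 24 h. SLC16A4 had 1.43 and 1.60, with 0.65 and 1.57 at 72 h.

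**Figure D4:**
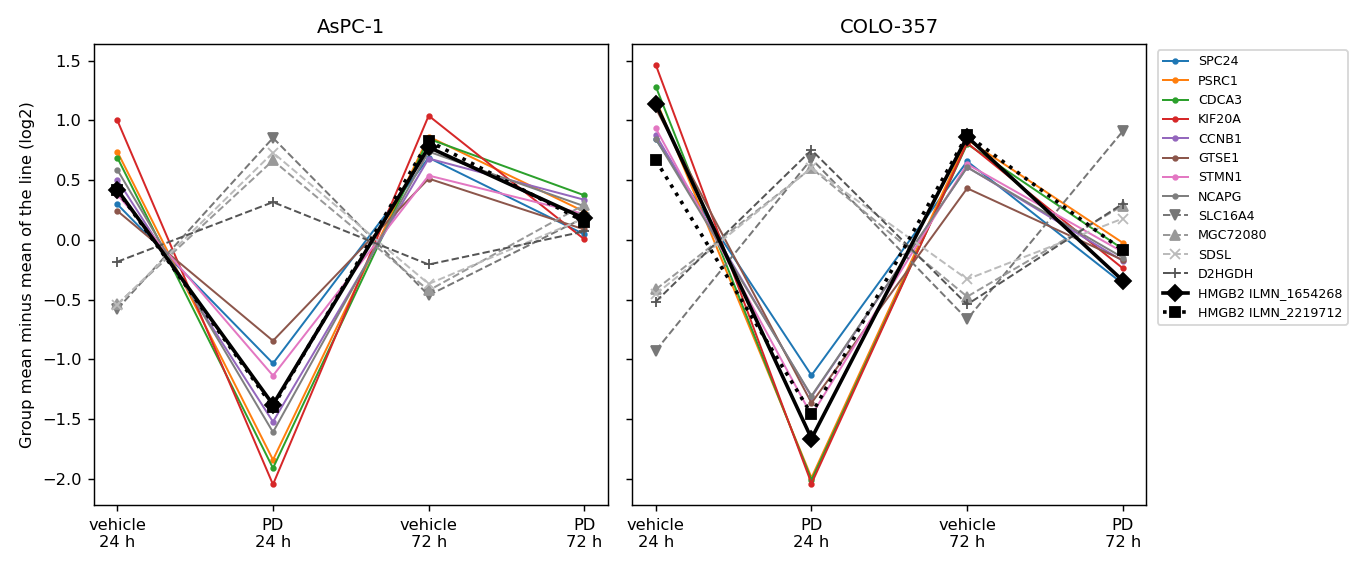
Group means minus the mean of the line (log2, vertical axis) in vehicle and PD cultures at 24 h and 72 h, for AsPC-1 (left) and COLO-357 (right). Black lines are HMGB2 on both probes, coloured solid lines the 8 most alike genes and grey dashed lines the 4 least alike. HMGB2 lies among the 8 genes at PD 24 h, below SPC24 and above KIF20A in both lines.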

How the data were processed

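Bead-array intensity per probe and array was deposited without normalisation, with a detection p-value beside each value, per the file headers. The authors' scaled intensity equals the deposited signal times 1 factor per array (largest relative deviation 6.69e-07), and their lists give a linear ratio of PD over vehicle, per the file headers. The software, the background step and the test behind the lists are not given in the sources used here. Signals were background-corrected by their detection p-values, quantile normalised and taken to log2 after an offset of 16 (neqc, limma 3.58.1, R 4.3.3). A probe was tested where 3 or more arrays gave it a detection p under 0.05. One mean per group was fitted over the 8 groups with empirical Bayes (limma, 16 residual degrees of freedom) and without a replicate term. SEs and calls therefore ignore the replicate numbers, except where the replicate block is named. The p-values were adjusted over all tested probes by the Benjamini-Hochberg method. SDs are over 3 arrays, and SEs come from the fit. The script was tested on simulated data.

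The gene and the lists were chosen with earlier results of these data known. Named genes were all named HMG, partner and receptor genes, up to 4 most and 2 least alike of each other list, and the 8 most and 4 least alike of all. A gene with several named probes was represented by the brightest. Alternatives were the authors' scaled values, 75th percentile scaling, no background correction, other filters, array weights, only the groups compared, a replicate block and leaving out each array. Replicate numbers come from the sample titles. Deviations of same-numbered arrays from their group means correlated at 0.11 to 0.47 in COLO-357 and at -0.05 to 0.12 in AsPC-1. The medians were 0.17 and 0.02, beside -0.21 and -0.0041 for arrays of different number. In COLO-357 8 of 12 arrays matched best with their own number, and in AsPC-1 10 of 12 did. Whether the numbers pair the cultures was not settled in either line, and the replicate block used them in both. Plots were made in Python 3.11.15 (matplotlib 3.10.9). No sequence or genome coordinate was used here.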

Additional observations from a re-analysis of the deposited data

How the results depend on the processing

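Direction was kept in each comparison of HMGB2 under each alternative, except that the 24 h difference in drug effect between lines on ILMN_2219712 turned to 0.21 without background correction. The cause was not tested. ILMN_1654268 in AsPC-1 at 72 h passed the test without background correction (-0.55, limma adjusted p = 0.033), with array weights (-0.60, 0.046) and with only the groups compared (-0.60, 0.031). It did not with the replicate block (adjusted p = 0.05) or with 1 array left out (adjusted p = 0.12 to 0.22). ILMN_2219712 passed with the replicate block (adjusted p = 0.015), and ran from -0.73 to -0.60 (adjusted p = 0.016 to 0.06) with 1 array left out. The replicate block changed no call of HMGB2.

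In the authors' scaled values ILMN_1654268 gave -1.47 for the drug effect in AsPC-1 at 24 h, 0.94 for its change by 72 h in AsPC-1 and 1.15 in COLO-357, 0.89 for PD at 72 h over 24 h in COLO-357, 1.49 and 0.73 for the vehicle difference between lines at 24 h and 72 h, and -0.92 for the difference in the 72 h drug effect between lines. ILMN_2219712 gave -1.55 and -1.75 for the 24 h drug effect in AsPC-1 and COLO-357, 0.69 for its change in COLO-357, 0.61 for vehicle at 72 h over 24 h in AsPC-1, 0.82 for PD at 72 h over 24 h in COLO-357, and -1.31 and -1.78 for the vehicle difference between lines. Medians of all probes lay beyond 0.1 there for PD at 72 h over 24 h in COLO-357 (-0.11), the vehicle difference at 24 h (0.14) and the difference in the 72 h drug effect (-0.12). With 75th percentile scaling the vehicle difference on ILMN_2219712 at 24 h was -1.94. Without background correction the COLO-357 drug effect at 24 h was -2.46 on ILMN_1654268 and -1.45 on ILMN_2219712. There ILMN_2219712 also gave -0.76 for COLO-357 at 72 h, 0.69 for the change, 0.87 for PD at 72 h over 24 h and -1.99 for the vehicle difference at 24 h. Leaving out 1 array in turn gave, on ILMN_1654268, -1.47 to -0.95 for COLO-357 at 72 h, 1.33 to 1.85 for its change, 1.06 to 1.58 for PD at 72 h over 24 h, and -0.88 to -0.35 for the difference in the 72 h drug effect.

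At 72 h the mitosis genes called lower ran from 5 without AsPC-1 PD replicate 3 to 22 without background correction in AsPC-1, and from 15 without COLO-357 PD replicate 1 to 56 in the authors' scaled values in COLO-357. Replication genes ran from 0 to 4 in AsPC-1 and 5 to 17 in COLO-357, condensin and cohesin genes from 1 to 4 and 3 to 11, and histones and chaperones from 0 to 3 and 0 to 8. RB pathway genes ran from 1 to 6 in COLO-357. The highest COLO-357 count of each list came in the authors' scaled values. There 5139 of all tested probes were called lower, beside 1371 as reported. All probes called lower ran from 444 to 1654 (24 h) and 360 to 999 (72 h) in AsPC-1, and 977 to 2164 (24 h) and 798 to 5139 (72 h) in COLO-357. Those called higher ran from 230 to 2061 and 471 to 1145, and from 863 to 2249 and 734 to 2347. Of the 8 genes most like HMGB2, 5 were among the 8 nearest in the authors' scaled values and 6 after centring on line and time.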

Other observations

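Of 77 genes with at least 2 named probes, HMGB2 included, 21 had probes on opposite sides of 0 for the line difference in vehicle cultures at 24 h, 17 at 72 h and 9 at both times. Sides were counted by sign alone, so small values such as -0.10 and 0.09 for MELK at 24 h count too. NEK2, a mitotic kinase gene, was among the 9 genes with opposite sides at both times. Its 2 probes gave COLO-357 minus AsPC-1 differences of -1.73 and 0.32 at 24 h, and -1.89 and 0.25 at 72 h. It had the widest gap after HMGB2 at 24 h. STXBP6, which encodes a syntaxin-binding protein, had probes at -0.91 and 0.93 at 24 h, but at 0.42 and 0.94 at 72 h. Both genes were picked out after their values were seen.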
